A study of Mus musculus with 9 samples.

Results

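The 37 genes described here mark the endothelium, the cells that line blood vessels, and the barrier it forms between blood and nervous tissue. They were chosen by name, with the condition that a gene holds 10 or more counts in 3 or more libraries. All 37 met it, among 16817 identifiers that did so of 27179 in the count table, and all were among the 16749 genes tested. The lowest count of any of them in any library was 46. By role they comprised 6 junction and adhesion genes, 10 transporter genes, 6 transcription factor genes and 15 genes for receptors, enzymes, secreted and other surface proteins.

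Poly-A RNA of the spinal cord was sequenced from 9 C57BL/6 mice in 3 groups of 3. The groups were Control mice with no condition named beyond that word, mice with experimental autoimmune encephalomyelitis (EAE), in which an immune attack on myelin models multiple sclerosis, and EAE mice that received EHP-101 orally (EAE+EHP-101, 20 mg/kg). How EAE was induced, whether the other groups had a vehicle, and the age, sex, sampling time and treatment length are not stated in the sources used here. EHP-101 is a code name, and the study's design text states that its effect on gene expression was the question. RNA came from cord tissue and not from sorted cells, so fewer endothelial cells cannot be told apart from less of a transcript per cell.

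In the brain and spinal cord, endothelial cells are joined by tight and adherens junctions that close the path between cells. They carry little traffic through vesicles, and they depend on carriers for glucose, amino acids, hormones and lipids, while efflux pumps return many compounds to the blood. Wnt signals from neural tissue and transcription factors of the SOX, FOX and ETS families keep this state. In inflamed nervous tissue the barrier is known to leak and leukocytes cross venous walls. EAE is a standard setting for its study.

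Libraries held 30448507 to 32661741 counts. In each pair of replicates the counts differed beyond sampling noise (chi-square over its degrees of freedom 6.64 to 27.5), and each library counted as 1 sample. Values below are normalised CPM, which are counts relative to the TMM-scaled size of a library, given for replicates 1, 2 and 3 in that order. Means are ± SD with n = 3, and SE is the standard error of a log2 fold change. A gene was called where edgeR's quasi-likelihood test gave an adjusted p under 0.05 over all genes tested. Neural markers were abundant in all groups. Snap25, a synaptic protein of neurons, averaged 3230.1 to 3721 CPM over the groups, and the myelin gene Mbp averaged 16442.5 to 18135 CPM.

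A few libraries stood apart for the endothelial genes. Control replicate 3 was the lowest Control in 31 of the 37, EAE replicate 3 the lowest EAE library in 30, and EAE+EHP-101 replicate 1 the lowest of its group in 29. Set against the Control mean of each gene, the median over the 37 genes was 113%, 104% and 80.6% in the Control libraries. It was 79.9%, 74.8% and 57.0% in EAE, and 82.8%, 87.5% and 102% in EAE+EHP-101. The lowest Control median thus lay just above the highest EAE median. Control replicate 3 also had the highest sum of 10 oligodendrocyte markers, 39586 CPM against 29097 and 29635 in the other Controls. The part of that difference in the results was not tested, and values without this library are given below.

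**Figure D1:**
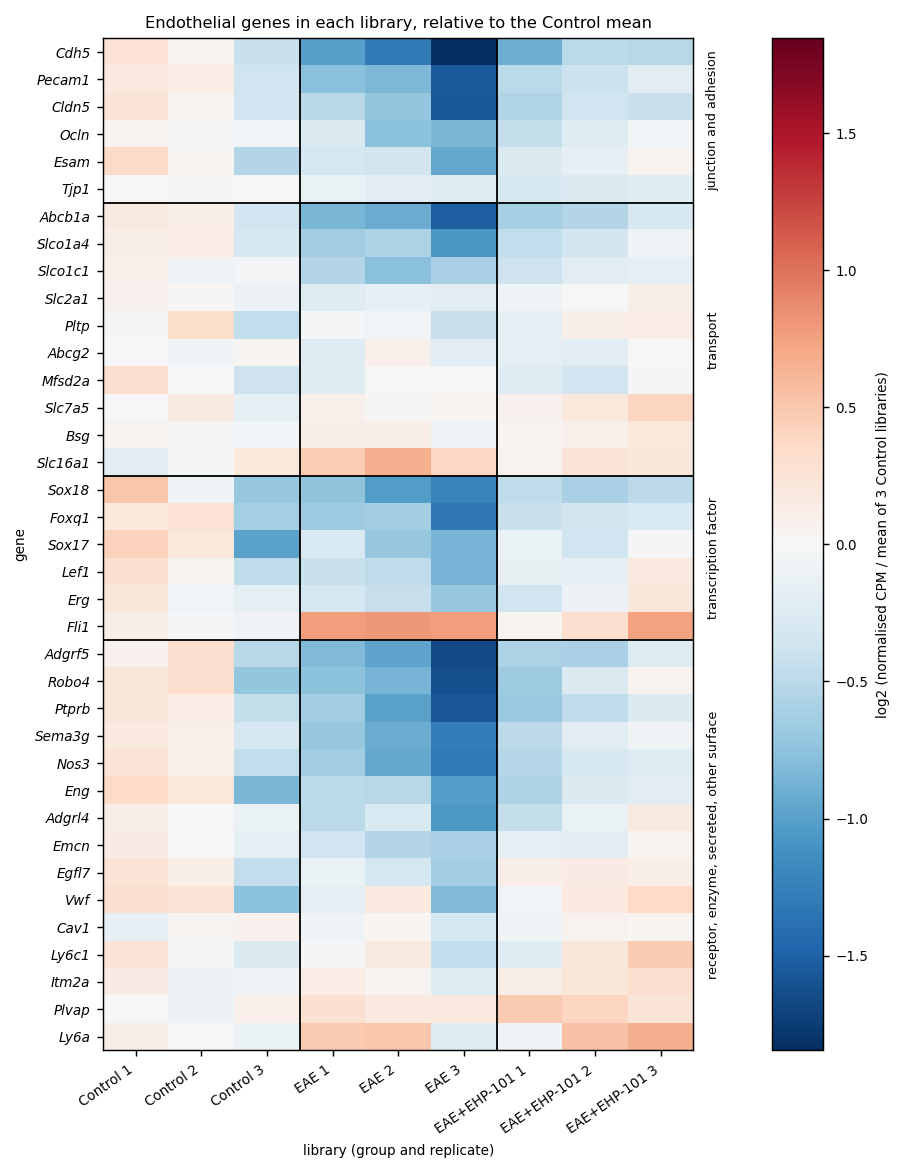
Normalised CPM of the 37 endothelial genes (rows, in blocks by role) in the 9 libraries (columns), as the log2 of each value over the mean of the 3 Control libraries; blue is lower and red is higher. Of the 37 genes, 30, 26 and 32 lie below the Control mean in EAE replicates 1, 2 and 3. In EAE+EHP-101 replicates 1, 2 and 3 the counts are 30, 25 and 17. Fli1 and Slc16a1 are red in all 3 EAE libraries.

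The question for EAE and Control was which endothelial genes differed in the diseased cord. Of the 37 genes, 18 were lower and 2 were higher, while the test called 16.7% of all genes lower and 20.2% higher (37.0% in either direction). Groups did not overlap for 19 genes on the lower side and 3 on the higher side, against 21.1% and 25.6% of all genes. The median log2 fold change was -0.50, and that of all genes tested was 0.0055. Among junction genes 5 of 6 were lower, with a median of -0.73. Among the 15 receptor, enzyme, secreted and surface genes 7 were lower (median -0.49), among transcription factors 2 were lower and 1 higher (median -0.58), and among transporters 4 were lower and 1 higher (median -0.13). Without Control replicate 3, 24 of the 37 were lower and the same number, 2, higher. In that fit 3696 of all 16932 genes tested (21.8%) were lower and 3399 higher.

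Transcripts that mark leukocytes and the interferon response moved in the same libraries. All 15 leukocyte genes and all 15 interferon response genes were higher in EAE. The leukocyte genes summed to between 82.0 and 98.3 CPM in Control, 721 and 972 in EAE, and 128 and 250 in EAE+EHP-101, and the interferon genes to between 116 and 124, 370 and 448, and 149 and 299 CPM. Ptprc, the pan-leukocyte surface phosphatase CD45, was at 6.27, 6.93 and 9.89 CPM in Control, 50.5, 51.9 and 36.9 in EAE, and 9.98, 20.5 and 23.1 in EAE+EHP-101. Each EAE library exceeded every other library for Ptprc. The part of these transcripts in the endothelial values was not tested.

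Junction and adhesion genes held the largest fall of the 37 genes. Cdh5, which encodes VE-cadherin, the endothelial cadherin of adherens junctions (chromosome 8, 104101625 to 104144502, plus strand, 12 exons), was at 16.8, 14.5 and 10.5 CPM in Control, 6.95, 5.61 and 3.87 in EAE, and 7.42, 9.80 and 9.70 in EAE+EHP-101. Each EAE value lay below every other value. The fall from Control to EAE was 2.54-fold (log2 -1.34, SE 0.22, adjusted p = 0.000811). Pecam1, the adhesion molecule CD31 at endothelial cell contacts, was at 32.5, 31.6 and 22.2 CPM in Control, 16.9, 16.1 and 9.85 in EAE, and 20.4, 21.8 and 24.8 in EAE+EHP-101. It fell 2.01-fold (log2 -1.01, SE 0.19, adjusted p = 0.00200).

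The tight junction genes fell by smaller amounts. Cldn5, the main claudin of the barrier and a gene with a single exon on chromosome 16 (18776847 to 18778262), was at 41.1, 36.4 and 27.5 CPM in Control, 24.6, 21.3 and 11.8 in EAE, and 23.7, 27.0 and 26.3 in EAE+EHP-101. Its fall was 1.81-fold (log2 -0.86, SE 0.22, adjusted p = 0.00994), without overlap between Control and EAE. Ocln, which encodes occludin, another membrane protein of tight junctions, went from 9.97 ± 0.400 to 6.59 ± 1.49 CPM (log2 -0.60, SE 0.15, adjusted p = 0.0108). Its libraries stood at 10.4, 9.87 and 9.63 in Control, 8.30, 5.89 and 5.58 in EAE, and 7.32, 8.51 and 9.64 in EAE+EHP-101. Occludin transcripts of EAE replicate 1 were therefore nearer to Control than those of the other EAE libraries. Esam, an adhesion molecule of the immunoglobulin family at endothelial contacts, was not called, at 15.5 ± 4.62 in Control and 10.9 ± 2.46 CPM in EAE (log2 -0.50, SE 0.21, adjusted p = 0.0858). It passed with Control replicate 3 left out (log2 -0.74, adjusted p = 0.00814).

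Tjp1, the scaffold protein ZO-1 that ties claudins to actin, is made by many cell types and was among the most counted of the 37. It was at 176, 181 and 176 CPM in Control, 162, 155 and 152 in EAE, and 145, 148 and 151 in EAE+EHP-101. All 3 groups were separate, in that order. The fall in EAE was small (log2 -0.18, SE 0.052, adjusted p = 0.0174), and it turned with the dependence of counts on gene length removed (log2 0.04, adjusted p = 0.622). Across genes, the Spearman correlation of a library's deviation with gene length was 0.244 to 0.410 in Control and -0.327 to -0.259 in EAE. The exons of Tjp1 cover 7114 bases.

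**Figure D2:**
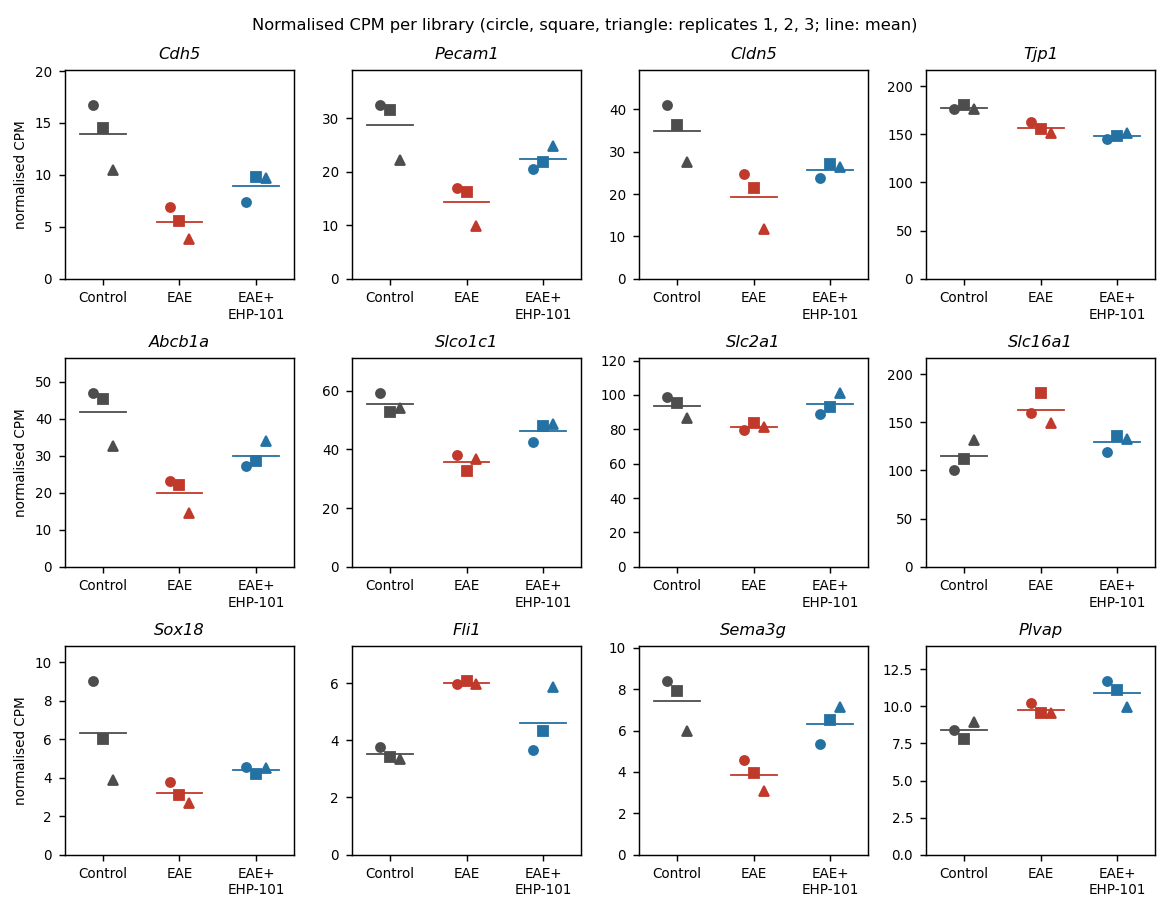
Normalised CPM (vertical axes, from 0) of 12 of the endothelial genes in Control, EAE and EAE+EHP-101; each point is 1 library and each line a group mean. For Cdh5, Pecam1, Abcb1a, Slco1c1, Slc2a1, Sox18 and Sema3g every EAE library lies below every library of the other groups, by a small margin for Slc2a1 and Sox18. For Slc16a1 every EAE library lies above them, and Fli1 has EAE+EHP-101 replicate 3 close under the EAE values.

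Transporter genes were mixed, with 4 lower, 1 higher and 5 not called. The efflux pump gene Abcb1a, which encodes P-glycoprotein, was at 47.0, 45.4 and 32.7 CPM in Control, 23.3, 22.0 and 14.5 in EAE, and 27.3, 28.7 and 34.0 in EAE+EHP-101. The EAE libraries were below all others, with a fall from Control of 2.09-fold (log2 -1.06, SE 0.18, adjusted p = 0.000950). Its close relative Abcb1b, named here after its values were seen, moved the other way. That gene was at 5.35, 4.81 and 5.18 CPM in Control, 8.002, 8.39 and 7.89 in EAE, and 4.80, 5.85 and 5.92 in EAE+EHP-101 (EAE against Control log2 0.66, SE 0.11, adjusted p = 0.00111). How reads that match both genes were counted is not stated in the sources used here, so the split between them is uncertain. Abcg2, another efflux pump, was at 28.9 ± 1.12 and 26.8 ± 3.41 CPM and was not called (adjusted p = 0.389).

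Both members of the SLCO family among the 37, organic anion carriers that move thyroid hormone and conjugated steroids, fell. Slco1c1 was at 59.3, 52.7 and 54.2 CPM in Control, 38.1, 32.5 and 36.6 in EAE, and 42.4, 48.0 and 48.7 in EAE+EHP-101. No group overlapped another. The fall in EAE was 1.55-fold, and it had the smallest adjusted p of the 37 genes (log2 -0.63, SE 0.080, adjusted p = 0.000205). Slco1a4 was at 91.3, 93.0 and 69.2 CPM in Control, 54.4, 56.6 and 40.0 in EAE, and 61.5, 66.8 and 81.2 in EAE+EHP-101. It fell 1.68-fold (log2 -0.75, SE 0.15, adjusted p = 0.00276). These genes lie 235 kb apart on chromosome 6.

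The promoters of genes that fell in EAE are shown because such genes moved in the same direction, and the letters allow a look at what they share. Each is the 250 bases before the start site as RefSeq gives it for GRCm38.p6, written 5′ to 3′ on the strand of the gene. Capitals mark AGGAAG, a core of ETS family sites, or ACAAT, a core of SOX sites, on either strand, where they read CTTCCT or ATTGT on the other. The window of Slco1c1 (chr6:141524104-141524353, plus strand) holds 1 ETS match on the opposite strand at -128 to -123. That of Slco1a4 (chr6:141856221-141856470, minus strand) holds 1 ETS match at -104 to -99 and 3 SOX matches.
Slco1c1: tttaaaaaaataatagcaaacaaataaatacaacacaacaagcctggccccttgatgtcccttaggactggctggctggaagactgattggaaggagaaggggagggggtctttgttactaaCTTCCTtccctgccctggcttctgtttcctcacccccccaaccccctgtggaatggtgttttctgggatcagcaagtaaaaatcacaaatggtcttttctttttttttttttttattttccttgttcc
Slco1a4: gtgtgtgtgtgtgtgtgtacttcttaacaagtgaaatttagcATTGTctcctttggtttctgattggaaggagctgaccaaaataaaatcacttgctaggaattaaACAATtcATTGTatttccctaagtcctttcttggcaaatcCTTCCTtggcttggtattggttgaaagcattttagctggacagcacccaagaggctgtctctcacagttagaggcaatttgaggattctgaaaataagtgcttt

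Nutrient carriers differed among themselves. Slc2a1, the glucose carrier GLUT1 (its gene product is also made by glia), was at 99.1, 95.1 and 86.4 CPM in Control, 79.5, 83.9 and 81.2 in EAE, and 89.0, 93.1 and 101.3 in EAE+EHP-101. The fall was small (log2 -0.20, SE 0.068, adjusted p = 0.0403) and passed in 10 of 17 alternative settings. Without Control replicate 1 or 2, without EAE replicate 1 or 3, or without EAE+EHP-101 replicate 2 the adjusted p was between 0.0533 and 0.113, and with library totals in place of TMM it was 0.0722. Slc16a1, the monocarboxylate carrier MCT1 of endothelium and of oligodendrocytes, rose. It was at 100.5, 111 and 132 CPM in Control, 159, 181 and 149.7 in EAE, and 119, 136 and 133 in EAE+EHP-101, and the EAE libraries lay above all others. The rise was 1.42-fold (log2 0.51, SE 0.10, adjusted p = 0.00258).

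The other transporter genes were not called. Mfsd2a, the lysophospholipid carrier that is known to restrain vesicle traffic in barrier endothelium, was at 46.7 ± 10.9 and 44.5 ± 3.92 CPM in Control and EAE (log2 -0.07, SE 0.15). Slc7a5, the large amino acid carrier LAT1, and Bsg, the glycoprotein basigin that brings monocarboxylate carriers to the membrane, had log2 differences of 0.05 and 0.06. Pltp, the phospholipid transfer protein, differed by -0.15 (SE 0.17). Exons of Pltp share 27.4% of their bases with Ctsa on the opposite strand, which held 3117 to 7056 counts, and the strand setting of the counting is unknown.

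Transcription factor genes were at low levels and mixed. Sox18, a SOX factor of vessel growth, was at 9.03, 5.98 and 3.90 CPM in Control, 3.77, 3.08 and 2.68 in EAE, and 4.54, 4.17 and 4.52 in EAE+EHP-101. It fell 1.98-fold (log2 -0.99, SE 0.25, adjusted p = 0.0108), although the lowest Control was only just above the highest EAE library. Foxq1, a forkhead factor found in brain endothelium, was at 4.11, 4.33 and 2.33 CPM in Control, 2.26, 2.31 and 1.43 in EAE, and 2.69, 2.85 and 2.95 in EAE+EHP-101. Its fall (log2 -0.84, SE 0.25, adjusted p = 0.0198) missed the threshold without Control replicate 1 (adjusted p = 0.0561), Control replicate 2 (0.0736) or EAE replicate 3 (0.0625).

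The ETS factors Erg and Fli1, close relatives that both act in endothelium, had fold changes of opposite sign. Erg, which keeps junction genes expressed, was at 5.03, 4.21 and 3.87 CPM in Control, 3.47, 3.27 and 2.68 in EAE, and 3.39, 4.04 and 5.03 in EAE+EHP-101. Control and EAE did not overlap, but the difference was not called (log2 -0.47, SE 0.18, adjusted p = 0.0555, between 0.0325 and 0.150 over the alternatives). Fli1, which leukocytes also express, was at 3.78, 3.42 and 3.34 CPM in Control, 5.98, 6.09 and 5.99 in EAE, and 3.65, 4.33 and 5.86 in EAE+EHP-101. It rose 1.71-fold (log2 0.78, SE 0.16, adjusted p = 0.00350). The leukocyte sums above rose in the same libraries, and their part in the Fli1 value was not tested. Sox17, a SOX factor of arteries, and Lef1, the nuclear partner of beta-catenin in Wnt signalling, had log2 differences of -0.59 (SE 0.30) and -0.56 (SE 0.22) and were not called. Without Control replicate 3 both passed, at adjusted p = 0.00301 and 0.00910.

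Among receptors, enzymes, secreted and other surface proteins, 7 of 15 were lower and the other 8 were not called. Sema3g, a secreted semaphorin of endothelium, was at 8.41, 7.91 and 6.00 CPM in Control, 4.59, 3.94 and 3.06 in EAE, and 5.34, 6.50 and 7.14 in EAE+EHP-101. It fell 1.92-fold (log2 -0.94, SE 0.18, adjusted p = 0.00212). Adgrf5, an adhesion G protein-coupled receptor, was at 56.2, 65.3 and 37.3 CPM in Control, 30.0, 26.9 and 16.6 in EAE, and 35.2, 35.1 and 44.7 in EAE+EHP-101 (log2 -1.11, SE 0.22, adjusted p = 0.00290). Both genes had EAE values below those of all 6 other libraries. Their promoter windows follow, Sema3g at chr14:31217623-31217872 and Adgrf5 at chr17:43389216-43389465, both on the plus strand, with the ETS match of Sema3g at -89 to -84. Adgrf5 has 2 windows. None of the 5 sequences searched was in the one printed, while the other holds the ETS sequence, so Adgrf5 counts as a match below.
Sema3g: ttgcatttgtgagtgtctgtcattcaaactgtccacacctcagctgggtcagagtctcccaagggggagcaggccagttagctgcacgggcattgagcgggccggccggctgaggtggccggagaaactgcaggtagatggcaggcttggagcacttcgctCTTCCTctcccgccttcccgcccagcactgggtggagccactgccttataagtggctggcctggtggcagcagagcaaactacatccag
Adgrf5: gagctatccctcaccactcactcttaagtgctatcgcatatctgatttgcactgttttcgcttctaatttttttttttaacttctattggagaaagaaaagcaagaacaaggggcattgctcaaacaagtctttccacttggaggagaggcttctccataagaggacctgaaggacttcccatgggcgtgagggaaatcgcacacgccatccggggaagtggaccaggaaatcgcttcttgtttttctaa

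Promoter windows were found for 23 of the 37 genes. Among them is Abcb1a, whose window lies 93.0 kb from the 5′ end of the gene. That window holds the ETS sequence, and Abcb1a is included in the counts that follow, also as a fallen gene. The ETS sequence was present for 15 of the 23, against 32.3% of the 27025 genes of the table, and in 18 of their 36 windows, against 29.5% of 32851 windows. It was present for 8 of the 12 fallen genes with a window. The other matches were Abcg2, Egfl7, Eng, Erg, Itm2a, Lef1 and Ly6c1, which were not called in EAE. The sequence was thus not particular to the fallen genes. The SOX sequence was present for 6 of the 23 (30.9% of genes). The remaining searches were ATCAAAG of TCF and LEF factors, TATAAA of the TATA box and TGACTCA of AP-1, also on both strands, and they matched 1, 4 and 0 of the 23 (3.72%, 14.3% and 5.16% of genes). The GC content was 42.8% for Slco1c1, 39.2% for Slco1a4, 60.4% for Sema3g and 44.8% for Adgrf5, with a median of 52.4% over all windows. A match describes letters and shows no binding.

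Enzymes and phosphatases of vessel tone and stability also fell. Nos3, the endothelial nitric oxide synthase, was at 12.5, 11.2 and 7.67 CPM in Control, 6.70, 5.41 and 4.24 in EAE, and 7.23, 8.51 and 8.84 in EAE+EHP-101 (log2 -0.94, SE 0.20, adjusted p = 0.00354). Its exons share 7.13% of their bases with Atg9b on the opposite strand, which held 256 to 322 counts, and the strand setting of the counting is unknown. Ptprb, which encodes VE-PTP, a phosphatase that acts on VE-cadherin and the angiopoietin receptor, was at 61.5, 57.9 and 38.7 CPM in Control, 33.8, 26.7 and 17.7 in EAE, and 32.9, 37.9 and 44.2 in EAE+EHP-101 (log2 -1.02, SE 0.22, adjusted p = 0.00421). With the gene length trend removed its fall was less and missed the threshold (log2 -0.64, adjusted p = 0.0517). Emcn, the surface sialomucin endomucin, was at 12.8, 11.6 and 10.3 CPM in Control, 9.06, 7.94 and 7.64 in EAE, and 10.2, 10.2 and 12.0 in EAE+EHP-101 (log2 -0.49, SE 0.12, adjusted p = 0.00653). Control and EAE did not overlap for Nos3, Ptprb or Emcn.

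Robo4, a guidance receptor that stabilises vessels, and Adgrl4, another adhesion receptor, completed the falls at log2 -1.03 (SE 0.29, adjusted p = 0.0164) and -0.58 (SE 0.18, adjusted p = 0.0285). Robo4 missed the threshold when Control replicate 2 was left out (adjusted p = 0.0645), or EAE replicate 3 (0.0523). Adgrl4 missed it without Control replicate 1 or 2, without EAE replicate 1 or 3 (between 0.0508 and 0.0703), and with the length trend removed (0.0784). Robo4 lies 114 kb from Esam on chromosome 9. Eng, the co-receptor endoglin, and Egfl7, a secreted matrix protein, were not called (log2 -0.66 and -0.35). They passed without Control replicate 3, at adjusted p = 0.00105 and 0.00465.

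Several other members were not called. Cav1, the caveolin of endothelial vesicles, was at 29.6 ± 2.53 and 27.5 ± 3.26 CPM, and Itm2a, a membrane protein of barrier endothelium, at 80.1 ± 8.12 and 79.8 ± 10.3. Vwf, the clotting factor stored in endothelial granules, was at 15.7, 15.2 and 7.63 CPM in Control, 11.5, 14.6 and 7.33 in EAE, and 12.4, 14.6 and 16.7 in EAE+EHP-101 (log2 -0.21, SE 0.27). Plvap, the diaphragm protein of leaky vessels that is sparse in mature barrier endothelium, was at 8.44, 7.81 and 8.98 CPM in Control, 10.2, 9.55 and 9.57 in EAE, and 11.7, 11.1 and 9.96 in EAE+EHP-101. Each EAE and EAE+EHP-101 value of Plvap was above every Control, and the EAE difference was not called (log2 0.22, SE 0.098, adjusted p = 0.103).

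Ly6c1 and Ly6a, lipid-anchored surface proteins encoded 46.1 kb apart on chromosome 15, mark mouse brain endothelium and are also found on leukocytes. Ly6c1 was at 30.3, 25.2 and 21.7 CPM in Control, 25.4, 28.7 and 18.8 in EAE, and 21.8, 29.9 and 36.0 in EAE+EHP-101. Ly6a, also called Sca-1 and inducible by interferon, was at 34.7, 32.1 and 29.5 CPM in Control, 45.0, 45.5 and 27.4 in EAE, and 30.5, 46.7 and 50.6 in EAE+EHP-101. Neither was called (log2 -0.08, SE 0.19, and 0.29, SE 0.20), and EAE replicate 3 was the lowest EAE library for both. Reads shared by members of this family may be split between them. The relative Ly6c2 was at 4.73, 0.0949 and 0.3604 CPM in Control (144, 3 and 11 counts), 0.906, 0.641 and 0.249 in EAE, and 0.704, 0.679 and 0.769 in EAE+EHP-101. Control replicate 1, which stood far above the rest for Ly6c2, was also the highest Control for Ly6c1.

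Ratios of 2 genes within a library do not depend on how libraries are scaled. The count of Plvap over that of Cldn5 was 0.206, 0.215 and 0.327 in Control, 0.415, 0.448 and 0.810 in EAE, and 0.496, 0.412 and 0.380 in EAE+EHP-101. Fli1 over Erg was 0.752, 0.813 and 0.865 in Control, 1.72, 1.86 and 2.23 in EAE, and 1.08, 1.07 and 1.17 in EAE+EHP-101. Vwf over Pecam1 was 0.483, 0.482 and 0.344 in Control, 0.679, 0.903 and 0.744 in EAE, and 0.606, 0.670 and 0.672 in EAE+EHP-101. For Ly6a over Ly6c1 the values were 1.15, 1.27 and 1.36, then 1.77, 1.59 and 1.46, then 1.40, 1.56 and 1.41. All 4 ratios were higher in every EAE library than in every Control.

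From Control to EAE the mean log2 ratio rose by 1.13 for Plvap to Cldn5, 1.25 for Fli1 to Erg, 0.84 for Vwf to Pecam1 and 0.35 for Ly6a to Ly6c1. Each had a 2-sided exact permutation p = 0.1 (adjusted 0.133 over 8 tests), the smallest that 3 against 3 libraries allow, so none could pass. From EAE to EAE+EHP-101 the differences were -0.32 (exact p = 0.5), -0.80 (exact p = 0.1), -0.25 (exact p = 0.1) and -0.14 (exact p = 0.2) in the same order. The EAE and EAE+EHP-101 libraries did not overlap for Fli1 to Erg and for Vwf to Pecam1. Leaving out EAE replicate 3 took the Plvap to Cldn5 difference between EAE+EHP-101 and EAE to -0.015.

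**Figure D3:**
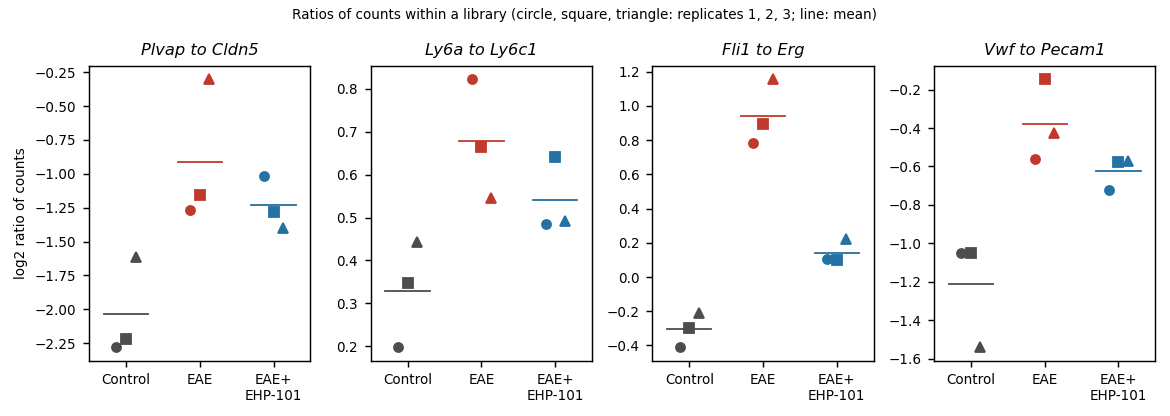
Log2 ratio of the counts of 2 genes within a library (vertical axes, each with its own range) in Control, EAE and EAE+EHP-101; points are libraries and lines are group means. Fli1 to Erg lies near 0.10 to 0.22 in EAE+EHP-101, between Control (-0.41 to -0.21) and EAE (0.78 to 1.15).

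EAE+EHP-101 was compared with EAE to ask which of these genes differed when the compound was given. Slco1c1 and Sema3g were higher, 2 of the 37, and 0 were lower. Over all genes 0.430% were called higher and 4.81% lower (5.24% in either direction). An unadjusted p under 0.05 was found for 20 of the 37, and for 16.2% of all genes. Groups did not overlap on the higher side for 16 genes and on the lower side for 3, against 10.7% and 16.9% of all genes. The median log2 fold change of the 37 was 0.39, against -0.0011 for all genes tested. This comparison shares its EAE libraries with the one above.

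Slco1c1, the hormone carrier with values above, rose 1.30-fold (log2 0.38, SE 0.080, adjusted p = 0.0195). The call was lost without EAE replicate 2 (adjusted p = 0.0789), EAE+EHP-101 replicate 2 (0.0825) or EAE+EHP-101 replicate 3 (0.0679). Sema3g rose 1.64-fold (log2 0.71, SE 0.18, adjusted p = 0.0461). Its call was lost without any single EAE library, without EAE+EHP-101 replicate 2 or 3, and without Control replicate 2 (adjusted p between 0.0509 and 0.142). It was also lost with library totals in place of TMM (0.0539) and with the length trend removed (0.0524). With DESeq2's Wald test 6 of the 37 were higher and 1 lower. Over all 16749 genes that test called 143 higher and 953 lower, against 72 and 805 in the main fit. Without Control replicate 3 the counts among the 37 were 8 and 1. Calls over all genes also rose in that fit, in both directions.

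Among the junction genes, Cdh5 had a log2 difference of 0.71 (SE 0.22, adjusted p = 0.102) and Pecam1 one of 0.64 (SE 0.19, adjusted p = 0.0897). Each EAE+EHP-101 library was above every EAE library for both. Cldn5 differed by 0.41 (SE 0.22, adjusted p = 0.402), and EAE+EHP-101 replicate 1 lay within the EAE range. Abcb1a differed by 0.59 (SE 0.18, adjusted p = 0.0932) and Slco1a4 by 0.47 (SE 0.15, adjusted p = 0.112), again without overlap. Of the 2 genes that rose in EAE, Slc16a1 differed by -0.34 (SE 0.10, adjusted p = 0.0902) and Fli1 by -0.38 (SE 0.16, adjusted p = 0.250). Without EAE+EHP-101 replicate 3 the Fli1 difference was -0.59 and passed (adjusted p = 0.0358). Of the receptor group, Robo4 had the largest difference, 0.77 (SE 0.29, adjusted p = 0.197), and the range of the other 14 went from 0.11 for Cav1 to 0.71 for Sema3g.

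The EAE+EHP-101 libraries were then compared with Control. Tjp1 and Slco1c1 were lower and Plvap was higher, while 9.82% of all genes were called lower and 9.96% higher (19.8% in either direction). The median log2 fold change of the 37 was -0.12, against 0.015 for all genes. Tjp1 had a log2 of -0.26 (SE 0.052, adjusted p = 0.00899), which missed the threshold with the length trend removed (-0.09, adjusted p = 0.288). Slco1c1 had -0.26 (SE 0.079, adjusted p = 0.0426), lost without Control replicate 1, EAE replicate 1 or any one EAE+EHP-101 library (0.0515 to 0.111). It was also lost with library totals (0.0781), with the length trend removed (0.0755) and with only these groups fitted (0.0533). Plvap had 0.38 (SE 0.097, adjusted p = 0.0220), lost without Control replicate 1 or 2 or EAE+EHP-101 replicate 1 or 2 (0.0565 to 0.0942), and with the length trend removed (0.0666). Cdh5 was at log2 -0.63 (SE 0.21, adjusted p = 0.0547), below every Control in all 3 EAE+EHP-101 libraries. Without Control replicate 3, 10 of the 37 were lower and 1 higher. In that fit 2065 of all 16932 genes tested (12.2%) were lower and 1674 higher.

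**Figure D4:**
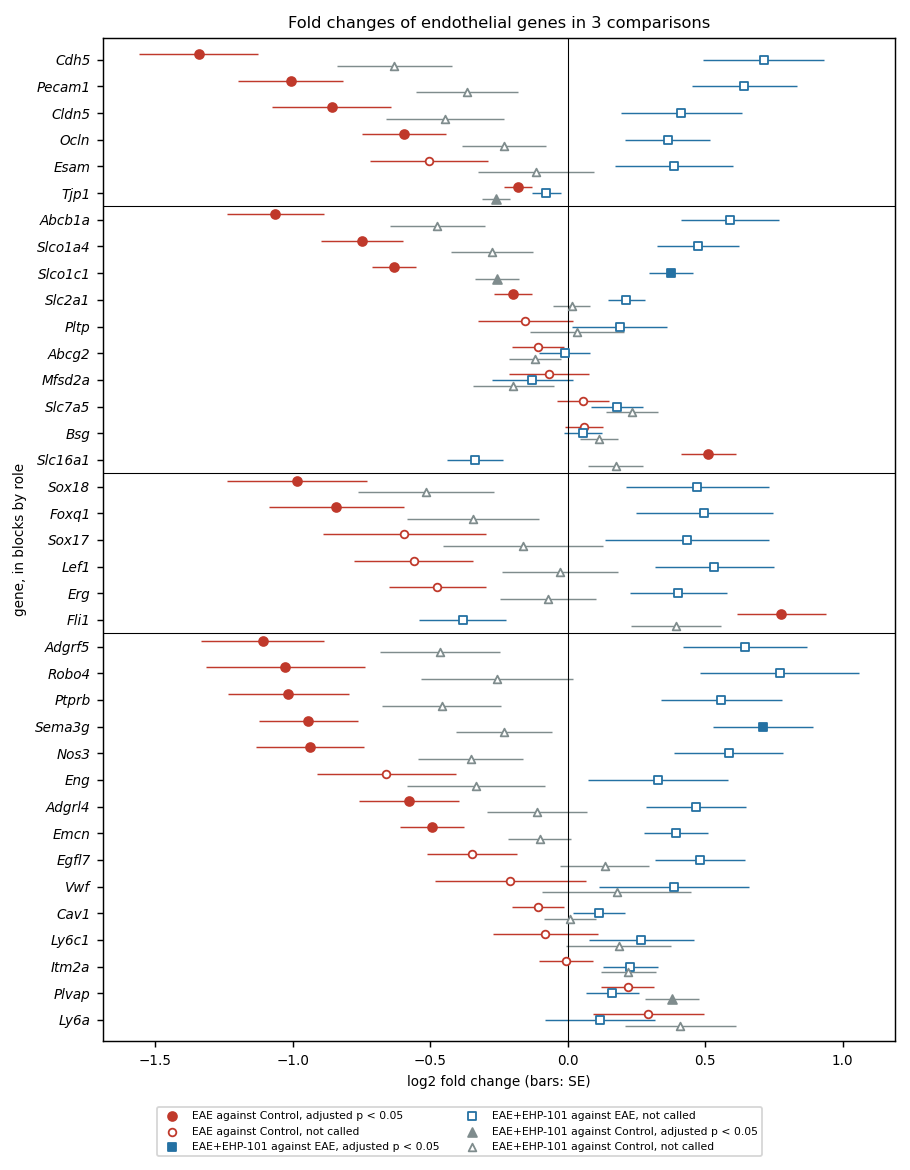
Log2 fold change (horizontal axis) with its SE (bars) of each of the 37 endothelial genes (rows, in blocks by role) in the 3 comparisons; filled symbols passed an adjusted p of 0.05 and open symbols did not. For EAE against Control 18 filled symbols lie left of 0 and 2 right of it; for EAE+EHP-101 against EAE the filled symbols are Slco1c1 and Sema3g.

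Levels can be set between genes only per length of exon. On the scale of reads per kilobase of exon and library size (RPKM), Bsg was the highest of the 37 in Control at 231, followed by Itm2a at 49.1, Ly6a at 38.7 and Slc2a1 at 36.4. Cldn5 stood at 24.7, Abcb1a at 8.38 and Cdh5 at 3.49, and Fli1 was the lowest at 1.14. In EAE the level of Fli1 was 1.95 and that of Erg 1.42, against 1.14 and 1.97 in Control.

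Other genes of vessels were read in the same fits. These called 16.7% of all genes lower and 20.2% higher in EAE (37.0% in either direction), the shares to set beside each count. Of 15 angiogenic receptors and ligands 7 were lower and 2 higher in EAE. Kdr, the main receptor of vascular endothelial growth factor, was at 29.1, 24.1 and 13.4 CPM in Control, 10.9, 6.66 and 6.92 in EAE, and 16.2, 14.3 and 12.2 in EAE+EHP-101 (log2 -1.44, SE 0.26, adjusted p = 0.00164). Tek, the angiopoietin receptor, went from 20.5 ± 3.01 to 10.2 ± 2.28 CPM (log2 -1.003, SE 0.18, adjusted p = 0.00147), and Flt1, another growth factor receptor, fell by 1.12 on the log2 scale (SE 0.23, adjusted p = 0.00292). Apln, the ligand apelin, had log2 -0.34 (SE 0.06, adjusted p = 0.00183). Of 12 capillary genes 6 were lower and 2 higher, with the carbonic anhydrase gene Car4 at log2 -0.93 (adjusted p = 0.00154) and the matrix gene Hmcn1 at -1.03 (adjusted p = 0.000107). The lower ones include Kdr again and Spock2 (log2 -0.61, adjusted p = 0.00397). Spock2 averaged 765 CPM in Control, against 22.2 for Kdr, and the part of other cell types in its value was not tested. Hmcn1 was higher in EAE+EHP-101 than in EAE (log2 0.88, SE 0.12, adjusted p = 0.00239).

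Of 10 venous genes tested 6 were higher in EAE and the other 4 were not called. Over all genes 20.2% were higher and 16.7% lower. Vcam1, the adhesion molecule that leukocytes bind when they cross, rose from 30.2 ± 3.42 to 52.9 ± 0.772 CPM (log2 0.81, SE 0.12, adjusted p = 0.000492). Icam1, another such molecule, rose from 3.15 ± 0.939 to 17.5 ± 2.61 CPM (log2 2.47, SE 0.27, adjusted p = 8.43e-05). Both were lower in EAE+EHP-101 than in EAE (log2 -0.61, adjusted p = 0.0121, and -1.32, adjusted p = 0.0102), and the Vcam1 call was lost without EAE replicate 1 (0.0509) or 2 (0.0510). Myeloid cells and astrocytes also express some of these genes, among them Ctsc, a cathepsin, which rose by log2 2.54. Of 14 arterial genes 2 were lower and 4 higher, led by rises of the chaperone gene Clu, which astrocytes also express (log2 0.63, adjusted p = 0.000263), of the endothelial surface protein gene Tm4sf1 (log2 0.91, adjusted p = 0.00139) and of the Notch target Hey1 (log2 0.31, adjusted p = 0.00240).

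Barrier genes outside the 37 were mixed, beside 16.7% of all genes lower and 20.2% higher in EAE (37.0% in either direction). Of 20 other barrier transporters 7 were lower and 4 higher in EAE, with the lipid exporter gene Abca1 at log2 1.27 (adjusted p = 0.000156) and the thiamine carrier gene Slc19a3 at -0.81 (adjusted p = 0.00105). Slco2b1, a further SLCO carrier, moved opposite to the members of that family, from 25.3 ± 1.29 to 52.7 ± 7.38 CPM (log2 1.06, SE 0.16, adjusted p = 0.000648). The leukocyte sums above rose in the same libraries, and their part in the Abca1 and Slco2b1 values was not tested. Of 15 other tight junction and scaffold genes 2 were lower and 1 higher. F11r, which encodes the junctional adhesion molecule JAM-A and is also made by leukocytes, had log2 1.15 (adjusted p = 0.000428). The scaffold gene Afdn had log2 -0.35 (adjusted p = 0.00281), which missed the threshold with the length trend removed (-0.12, adjusted p = 0.158). Cgn, the junction plaque protein cingulin, had -0.52 (adjusted p = 0.0297), lost without Control replicate 2 (0.102), EAE replicate 2 (0.0899) or EAE replicate 3 (0.0777) and with the length trend removed (-0.39, adjusted p = 0.102). Of 21 genes of endothelial Wnt signalling 6 were lower and 5 higher, with a median of 0.014. The ligand gene Wnt7b was at log2 0.38 (adjusted p = 0.00188), the nuclear effector gene Tcf7l2 at 0.65 (adjusted p = 0.00223) and the feedback inhibitor gene Nkd1 at -0.36 (adjusted p = 0.00400). Of 8 caveola and transcytosis genes 1 was lower and 2 higher. The higher ones were the caveola coat protein gene Cavin3 at 0.51 (adjusted p = 0.00108) and the membrane scaffold gene Flot1 at 0.35 (adjusted p = 0.00113). The lower one, Cavin2, at -0.37 (adjusted p = 0.0229), missed the threshold without Control replicate 2 (0.0533) or EAE replicate 1 (0.0538).

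Cells beside the endothelium were read from their markers, again beside 16.7% of all genes lower and 20.2% higher in EAE. Of 15 mural cell genes 6 were lower and 2 higher in EAE. The higher ones were Tagln, the actin-binding protein transgelin of smooth muscle (log2 1.52, adjusted p = 6.66e-05), and Anpep, the aminopeptidase CD13 of pericytes and myeloid cells (log2 1.57, adjusted p = 0.000508). The pericyte gene Rgs5 had log2 -0.86 (adjusted p = 0.000537) and Abcc9, a subunit of a potassium channel, -0.90 (adjusted p = 0.00382), whereas Pdgfrb, the receptor that recruits pericytes, was not called (21.9 ± 6.98 and 15.8 ± 1.74 CPM, log2 -0.47, adjusted p = 0.0806). The 15 mural genes summed to between 144 and 238 CPM in Control, 149.8 and 169.8 in EAE and 161 and 187 in EAE+EHP-101. Of 10 perivascular fibroblast genes 6 were higher and the other 4 were not called. They were led by the collagen gene Col3a1 (log2 3.11, adjusted p = 1.13e-05) and summed to between 134 and 151 CPM in Control, 273 and 318 in EAE, and 146 and 194 in EAE+EHP-101.

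In the rest of the tissue, 3 of 10 astrocyte genes were higher and 4 of 10 neuronal genes were lower. Of 10 oligodendrocyte genes 1 was lower and 2 were higher. Over all genes 16.7% were lower and 20.2% higher. Of the erythroid genes 2 were tested and both were lower, Alas2 and Hba-a2, at 1.92 ± 0.313 and 3.23 ± 0.859 CPM in Control. Hba-a1 and Hbb-bs had 0 counts in all Control and EAE libraries. Of 4 lymphatic genes tested 2 were lower and 1 was higher. The lower ones were Prox1 (log2 -0.47, adjusted p = 0.00203) and Flt4 (-0.64, adjusted p = 0.0192), which is also among the angiogenic receptors. The Flt4 call was lost in 4 of 17 alternatives. Pdpn was the higher one (log2 1.92, adjusted p = 3.54e-05). Prox1 averaged 28.7 CPM in Control, and which cells made these transcripts was not tested. The lymphatic chemokine gene Ccl21a had 0 counts in every library, and Lyve1, a lymphatic receptor, averaged 0.356 to 0.386 CPM over the groups.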

How the data were processed

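RNA of spinal cord was measured in 9 libraries, 1 per mouse. Per the labels' protocols, 1 µg of RNA went into poly-A selected stranded libraries, read single-end for 50 bp. The values are read counts per gene that the authors deposited, not normalised, under Entrez identifiers. The submitters' processing notes name genome build mm10, featureCounts 1.6.1, HISAT2 2.1.0, Trimmomatic 0.36 and DESeq2 1.20.0, with no roles. The strand setting and the handling of multiply mapped reads are not stated in the sources used here.

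Symbols came from a RefSeq table of GRCm38.p6 (25275 of 27179 identifiers, the rest holding 0.311% to 0.619% of counts). Gene coordinates were taken from the deposited table (mm10, 1-based). In R 4.3.3, edgeR 4.0.16 fitted quasi-likelihood models with TMM factors to the 16749 genes kept by filterByExpr, all 9 libraries and 1 mean per group (prior degrees of freedom 5.28), with Benjamini-Hochberg adjustment over all genes. SE is the log2 fold change over the root of its F statistic. Ratios add 0.5 to each count. The main fit was also run on simulated counts, and the outcome is not reported here. Each p-value reflects only the variation among mice of a single experiment.

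The members and the 17 further lists were chosen with earlier results of these data known. Values in every library are given for the 5 called members of each role with the smallest p in EAE against Control, for members called in EAE+EHP-101 against EAE and for the genes of the ratios. Up to 4 genes of the other lists with the smallest p are named, and Kdr, Tek, Vcam1, Icam1, Pdgfrb and Ptprc whatever their values. Abcb1b, Ly6c2, Snap25, Mbp, Lyve1, Ccl21a, Hba-a1, Hbb-bs, Ctsa and Atg9b fall outside this rule. Promoters are those of the 4 fallen members with the smallest p among the members with a promoter window. Abcb1a was left out of those printed because its window lies 93.0 kb from the 5′ end of the gene in the table. It was kept in the counts of matches. Alternatives were DESeq2 1.42.0 (Wald test, and its size factors in edgeR), library totals, 2 other filters, the replicate number as a block, the gene length trend removed per library, the 6 libraries of 2 groups alone, and each library left out.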

Additional observations from a re-analysis of the deposited data

How the results depend on the processing

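Of the 20 members called in EAE against Control, 14 were called under every one of the 17 alternatives. The exceptions were Slc2a1, Foxq1, Robo4, Adgrl4, Ptprb and Tjp1, and the fold change of Tjp1 alone among the called members turned, to log2 0.0398 (adjusted p = 0.622) with the gene length trend removed. The count of called members ranged from 16 to 26 when 1 library was left out and from 18 to 21 under the other settings. For EAE+EHP-101 against EAE the count of 2 went to 7 with DESeq2's Wald test, to 1 with library totals, to 1 with the length trend removed, and to between 0 and 9 when 1 library was left out. For EAE+EHP-101 against Control the count of 3 went to 5 with DESeq2's Wald test, to 5 with only the 2 groups fitted, to 2 with library totals, to 0 with the length trend removed, and to between 1 and 11 when 1 library was left out. The highest counts in all 3 comparisons came without Control replicate 3. No call of the latter comparisons was kept under every alternative. With the length trend removed, 1701 of all genes were lower in EAE than in Control, in place of 2800. Differences of the 4 ratios kept their sign under an added count of 5 and with each library left out. The causes were not tested. The lowest count of a member in any library was 46, for Foxq1 in EAE replicate 3.

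With the replicate number as a replicate block, 19 members were called in EAE against Control, 1 in EAE+EHP-101 against EAE and 2 in EAE+EHP-101 against Control, and 2358 of all genes were lower in EAE. The member calls lost under the block were those of Slc2a1 (adjusted p = 0.0781), Sema3g (0.0689) and Slco1c1 (0.0752), in that order of comparisons, and Cgn of the other genes named lost its call in EAE against Control (0.0528). Samples with the same number did not deviate together (correlations -0.187 to 0.123 across genes), so the numbers are taken as names only.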
